A study of Mus musculus with 12 samples.

Results

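The genes described here encode the machinery that cells use to sense oxygen and to switch on the response to low oxygen. They comprise the hypoxia-inducible factor (HIF) alpha subunits Hif1a, Epas1 and Hif3a, the beta subunits Arnt and Arnt2, the prolyl hydroxylases Egln1, Egln2 and Egln3, the ubiquitin ligase receptor Vhl and the asparaginyl hydroxylase Hif1an. They are identified by gene symbol, with no threshold on their values, and are 10 of the 48709 genes in the count tables. RNA-seq libraries were made from C57BL/6 mouse embryonic fibroblasts, connective tissue cells grown from embryos, in 4 groups of 3 samples. Cells of each genotype, WT and TAZKo, were kept either in normoxia or for 24 h in a hypoxia workstation. The oxygen level, and whether the samples of a group are separate cultures or how many lines they came from, are not given in the sources used here, so p-values measure only the spread between these samples, which may be technical. The series title asks whether a defect in mitochondrial cardiolipin remodelling alters HIF-1a expression in hypoxia.

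HIF is a heterodimer of an alpha and a beta subunit that binds hypoxia response elements in DNA. In the presence of oxygen the EGLN prolyl hydroxylases mark the alpha subunit, VHL binds the marked protein and a ubiquitin ligase sends it to the proteasome, while HIF1AN hydroxylates an asparagine that blocks coactivator binding. In low oxygen these steps slow, the alpha protein accumulates, and target genes are switched on, with Egln1 and Egln3 known among them as negative feedback. RNA counts measure the supply of transcripts and not the protein, whose stability is the regulated step.

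Sequence upstream of the prolyl hydroxylase genes is shown first, since these 3 paralogues gave the widest range of responses to hypoxia among the genes described. The 250 bases before each RefSeq start (GRCm38.p6) were searched on both strands for ACGTG and GCGTG, the core letters of a hypoxia response element. At least 1 of these words occurred in 38.6% of all 32851 such windows, ACGTG in 16.6% and GCGTG in 28.2%. The table held 10 windows for 9 of the 10 genes, and Epas1 was not in it. The Egln1 stretch is chr8:124949325-124949504 and ends at the annotated gene start. The Egln1 site that follows is chr8:124949308-124949332, and its matched word lies inside the annotated first exon. The Egln2 window is chr7:27166803-27167052, and the Egln3 window is chr12:54203875-54204124. All are printed on the minus strand, 5′ to 3′, with the matched words in capitals.
Egln1: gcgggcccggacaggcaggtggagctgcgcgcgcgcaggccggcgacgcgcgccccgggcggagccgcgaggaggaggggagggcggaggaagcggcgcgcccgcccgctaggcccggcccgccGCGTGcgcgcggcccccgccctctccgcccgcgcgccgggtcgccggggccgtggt
Egln1 site: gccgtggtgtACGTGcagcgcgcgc
Egln2: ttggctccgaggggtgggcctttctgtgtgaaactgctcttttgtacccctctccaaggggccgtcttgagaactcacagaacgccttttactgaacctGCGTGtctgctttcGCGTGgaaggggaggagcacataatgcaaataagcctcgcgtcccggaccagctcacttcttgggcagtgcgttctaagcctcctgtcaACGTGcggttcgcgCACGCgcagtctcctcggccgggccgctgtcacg
Egln3: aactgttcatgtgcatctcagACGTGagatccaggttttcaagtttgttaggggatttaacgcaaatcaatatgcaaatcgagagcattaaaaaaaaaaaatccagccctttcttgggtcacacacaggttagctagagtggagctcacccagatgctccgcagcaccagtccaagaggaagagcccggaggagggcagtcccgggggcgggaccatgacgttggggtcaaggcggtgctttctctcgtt
The Egln2 window held 4 matches, a number reached by 2.6% of all windows, and a further window inside the gene held 1. Egln1 held 2 matches in a window of 86% G and C bases, 1 of them inside the annotated first exon, and Egln3 held 1. Hif1a held 3 matches, of which a pair are the same CACGTG read on both strands, Hif3a held 2 and Arnt held 1. The Hif1a window, chr12:73907617-73907866, lies inside the annotated gene, which starts at 73901375. The bases checked after its RefSeq start were not found in an annotated Hif1a transcript. Arnt2, Vhl and Hif1an held none in these windows. A match is a description of the letters and not a site of binding.

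The tables held 21039451 to 31204510 counts per library, and 3 counts, the level that a count of 0 still allows, correspond to 0.0961 to 0.1426 CPM (counts scaled to the library total, in the usual per-million unit). Of 10 fibroblast markers, 8 or 9 stood at 1 CPM or more in each group, with summed levels of 10400 to 13300 CPM, but Thy1 did not exceed 0.291 CPM and Col1a2 did not exceed 5.93 CPM. The defining endothelial gene Cdh5 and immune gene Ptprc did not exceed 0.0692 and 0.0348 CPM, and 3 or 4 of 7 epithelial markers reached 1 CPM, chiefly the keratins Krt14, Krt18 and Krt19. The epithelial sum moved with the groups, at 447 to 571 CPM in WT and 249 to 272 CPM in TAZKo in normoxia and at 751 to 774 CPM in WT and 539 to 568 CPM in TAZKo in hypoxia. The endothelial sum, mainly Tek, was 14.6 to 21.2 CPM in WT and 4.33 to 7.91 CPM in TAZKo. The immune sum, mainly Cd68 and Csf1r, was 4.48 to 5.57 CPM in normoxia and 8.13 to 14 CPM in hypoxia, with Adgre1 at 0. The myogenic sum, mainly Des, was 4.26 to 5.44 CPM in WT and 9.66 to 10.8 CPM in TAZKo in normoxia, and 3.35 to 5.02 against 6.16 to 7.14 CPM in hypoxia, with Myod1 at 0. The neural sum was 35.4 to 41.3 against 25.5 to 31.3 CPM in normoxia and 44.8 to 62.2 against 36.7 to 38.8 CPM in hypoxia. In bulk RNA fewer cells of a type and less RNA per cell cannot be told apart, and the part of these markers in the results below was not tested. WT normoxia sample 1 stood apart from its group, with a chi-square per gene of 36.7 and 43.5 against the other 2 WT normoxia samples, which differed from each other by 5.76. To a lesser degree sample 1 also stood apart in WT hypoxia (13.7 and 14, against 3.67 between the others). The same held in TAZKo normoxia (8.69 and 11, against 2.9). By the lane in the table names, samples 1 and 2 of each normoxia group were on lane 4 and sample 3 on lane 5. In each hypoxia group sample 1 was on lane 4 and samples 2 and 3 on lane 5. Lane is therefore partly confounded with oxygen, and its part in the distances between these samples was not tested. Values of Hif1a and Egln2 that change with WT normoxia sample 1 are also given without that sample or sample by sample. Taz, which encodes the cardiolipin acyltransferase tafazzin, was not lower in the libraries labelled TAZKo, at 42.2 ± 3.18 against 34.6 ± 2.92 CPM in normoxia and 33.8 ± 1.15 against 25.1 ± 1.49 CPM in hypoxia (mean ± SD, n = 3). Gene counts do not show which exons the reads cover, so this level does not check a deletion of part of the gene, and every genotype difference below is between libraries labelled TAZKo and libraries labelled WT.

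Hypoxia against normoxia split the 9 genes tested into those that rose several-fold, those that rose slightly, those that fell, and those without a call, Egln2 in both genotypes and Epas1 in TAZKo. Egln1, Egln3 and Vhl rose most in both genotypes, Hif1a and Arnt2 rose less, and Arnt and Hif1an fell by small amounts. With edgeR's quasi-likelihood test on all 14408 genes tested and Benjamini-Hochberg adjustment (threshold 0.05), 8 of the 9 members tested changed in WT libraries, 6 higher and 2 lower, against 51.0% of all genes tested, 26.0% higher and 25.0% lower. In TAZKo libraries 7 of 9 changed, 5 higher and 2 lower, against 43.8% of all genes, 22.2% higher and 21.6% lower. The median log2 change of the 9 members was 0.36 in WT and 0.5 in TAZKo, where the medians of all genes tested were 0.009 and -0.009. Of all genes called, 51.0% in WT and 50.7% in TAZKo were higher in hypoxia, and with scaling by library size alone 38.1% and 36.0%.

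Of the 10 calls between genotypes over both conditions, 9 were lower in TAZKo, with Arnt2, Egln1 and Hif1an counted in each condition. Among all genes called, 51.1% in normoxia and 48.3% in hypoxia were higher in TAZKo. In normoxia 5 of 9 members differed between TAZKo and WT libraries, 1 higher and 4 lower, against 30.4% of all genes, 15.6% higher and 14.9% lower. In hypoxia 5 of 9 differed and all 5 were lower in TAZKo, against 32.8% of all genes, 15.8% higher and 16.9% lower. The median log2 difference of the 9 members was -0.29 in normoxia and -0.19 in hypoxia, beside 0.01 and -0.008 for all genes. Arnt2, Egln1 and Hif1an were lower in TAZKo in both conditions. These comparisons share groups with each other (each group enters a genotype and an oxygen comparison), so their values are given side by side only.

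**Figure D1:**
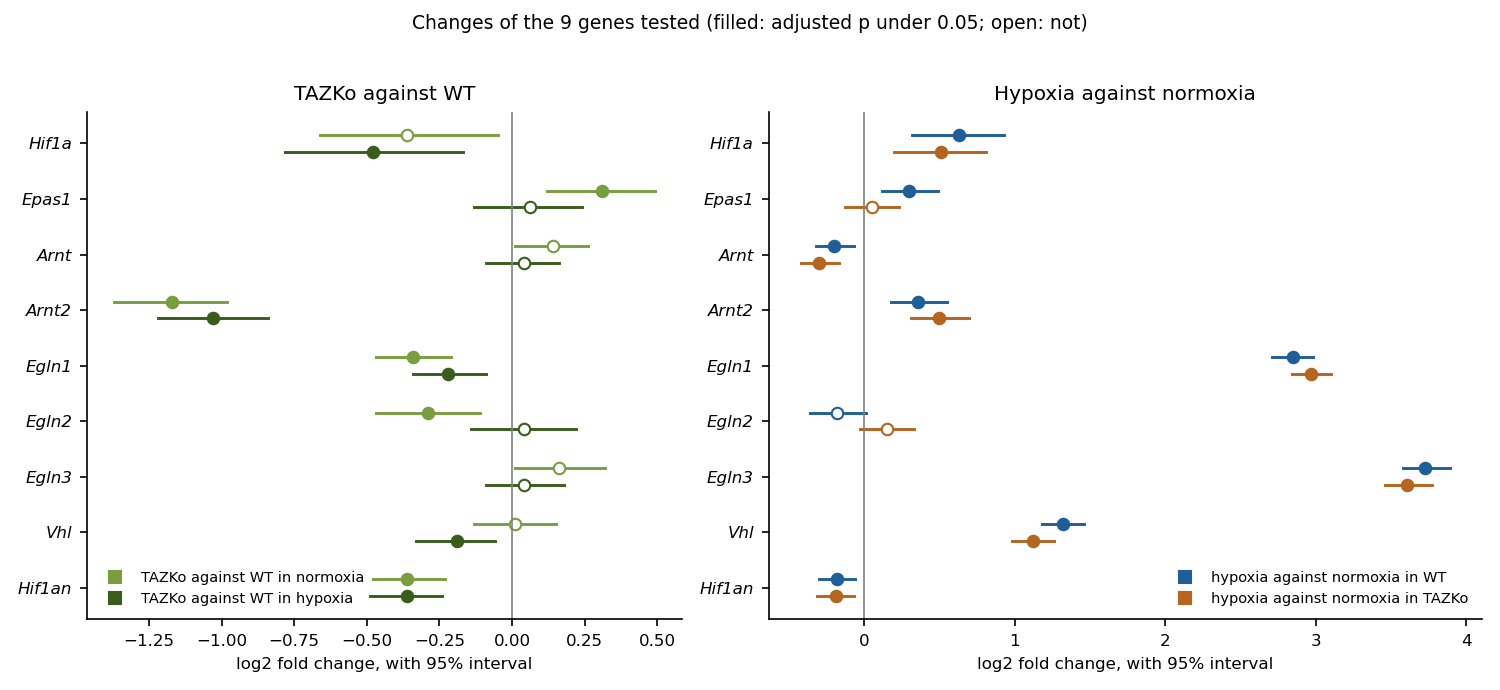
Log2 fold changes of the 9 genes tested, with 95% intervals, for TAZKo against WT (left) and for hypoxia against normoxia (right), with filled points for an adjusted p under 0.05. The right axis spans a wider range than the left: Egln3 reached 3.73 in WT under hypoxia, and the strongest genotype difference was -1.17 for Arnt2.

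Hif1a (ENSMUSG00000021109, chromosome 12, 73901375 to 73947530 on the plus strand, GRCm38) encodes the alpha subunit that most cell types use. In samples 1 to 3 of the WT libraries it stood at 178, 274 and 284 CPM under normoxia and at 370, 382 and 383 CPM under hypoxia, and in the TAZKo libraries at 162, 211 and 203 CPM and at 264, 273 and 279 CPM. All WT hypoxia libraries lay above all others, and in normoxia the groups overlapped because WT sample 1 was low. Hif1a rose in hypoxia by 0.63 ± 0.14 (log2 change ± SE) in WT libraries, with an adjusted p of 0.00207 by edgeR's quasi-likelihood test, and by 0.51 ± 0.141 in TAZKo libraries (0.0101). In hypoxia it was 1.39-fold lower in TAZKo libraries, a log2 difference of -0.48 (95% interval -0.78 to -0.17, adjusted p = 0.0183 by edgeR). In normoxia the difference was -0.36 (interval -0.66 to -0.05) and did not pass, with an adjusted p of 0.0719 by edgeR.

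The Hif1a genotype calls depended on the fit. Without WT normoxia sample 1 the normoxia difference was -0.54 (edgeR adjusted p = 0.000138) and the WT rise in hypoxia 0.44 (0.000454). With the sample number as a block, which treats same-numbered samples as matched, the normoxia difference was -0.35 (-0.345 before rounding) with an edgeR adjusted p of 0.0172. DESeq2 without the block gave -0.37 with 0.0291. It also passed in edgeR with DESeq2's size factors (-0.37, adjusted p = 0.0498) and with no filter on low counts (-0.39, 9.54e-06). The hypoxia difference missed the threshold without WT hypoxia sample 2, WT hypoxia sample 3, TAZKo hypoxia sample 1 or TAZKo hypoxia sample 2, at -0.46 to -0.49 and edgeR adjusted p-values of 0.0517 to 0.0629. The hypoxia difference kept its call in 16 of 20 alternatives, and was -0.48 without WT normoxia sample 1 (edgeR adjusted p = 0.000122). The TAZKo rise missed the threshold without TAZKo normoxia sample 1 (0.36, edgeR adjusted p = 0.0717). The antisense gene Gm15283 shares 330 exon bases, 5.6% of Hif1a's exon length, and was given 165 counts over the 12 libraries. Gm49321, on the same strand and not in the tables, shares 148. Whether counting used strand is not given in the sources used here, and the part of reads from these overlaps in the Hif1a values was not tested.

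Epas1 (ENSMUSG00000024140, chromosome 17, 86753700 to 86833410, plus strand) encodes HIF-2a, the alpha subunit best known from endothelium. The gene lay at 26.6 to 30.8 CPM under normoxia and 32.2 to 39.2 CPM under hypoxia in the WT libraries, while the TAZKo libraries had, in the same order, 33.5 to 38.4 CPM and 35.1 to 38.3 CPM. WT normoxia was the low group and the other 3 overlapped. Epas1 was higher in TAZKo in normoxia (log2 difference 0.31, SE 0.0861; edgeR adjusted p = 0.0151) and rose in WT under hypoxia by 0.3 (SE 0.0865, edgeR adjusted p = 0.01). The TAZKo response was 0.05 (interval -0.13 to 0.23), and -0.04 when scaled by library size alone, and the hypoxia genotype difference was 0.06 (interval -0.13 to 0.24). The normoxia call was lost without WT normoxia sample 2 (0.23, edgeR adjusted p = 0.0947) or TAZKo normoxia sample 3 (0.21, 0.123). The WT rise was lost without WT normoxia sample 2 (0.2, edgeR adjusted p = 0.104) or WT hypoxia sample 3 (0.16, 0.146), and with library size alone (0.2, 0.0736), no filter (0.22, 0.0591) or only the 6 samples compared (0.25, 0.0752).

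Hif3a (ENSMUSG00000004328, chromosome 7, 17031507 to 17062427, minus strand), whose product lacks the full activating function of the other alpha subunits in several isoforms, was at or near the detection limit. The gene had 1, 5 and 1 counts under normoxia and 0, 0 and 1 counts under hypoxia in the WT libraries, while the TAZKo libraries had, in the same order, 0, 2 and 0 counts and 0, 1 and 0 counts, so 6 libraries had none. The gene did not pass the filter on low counts, no fold change is given, and a change was not detectable at this depth.

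**Figure D2:**
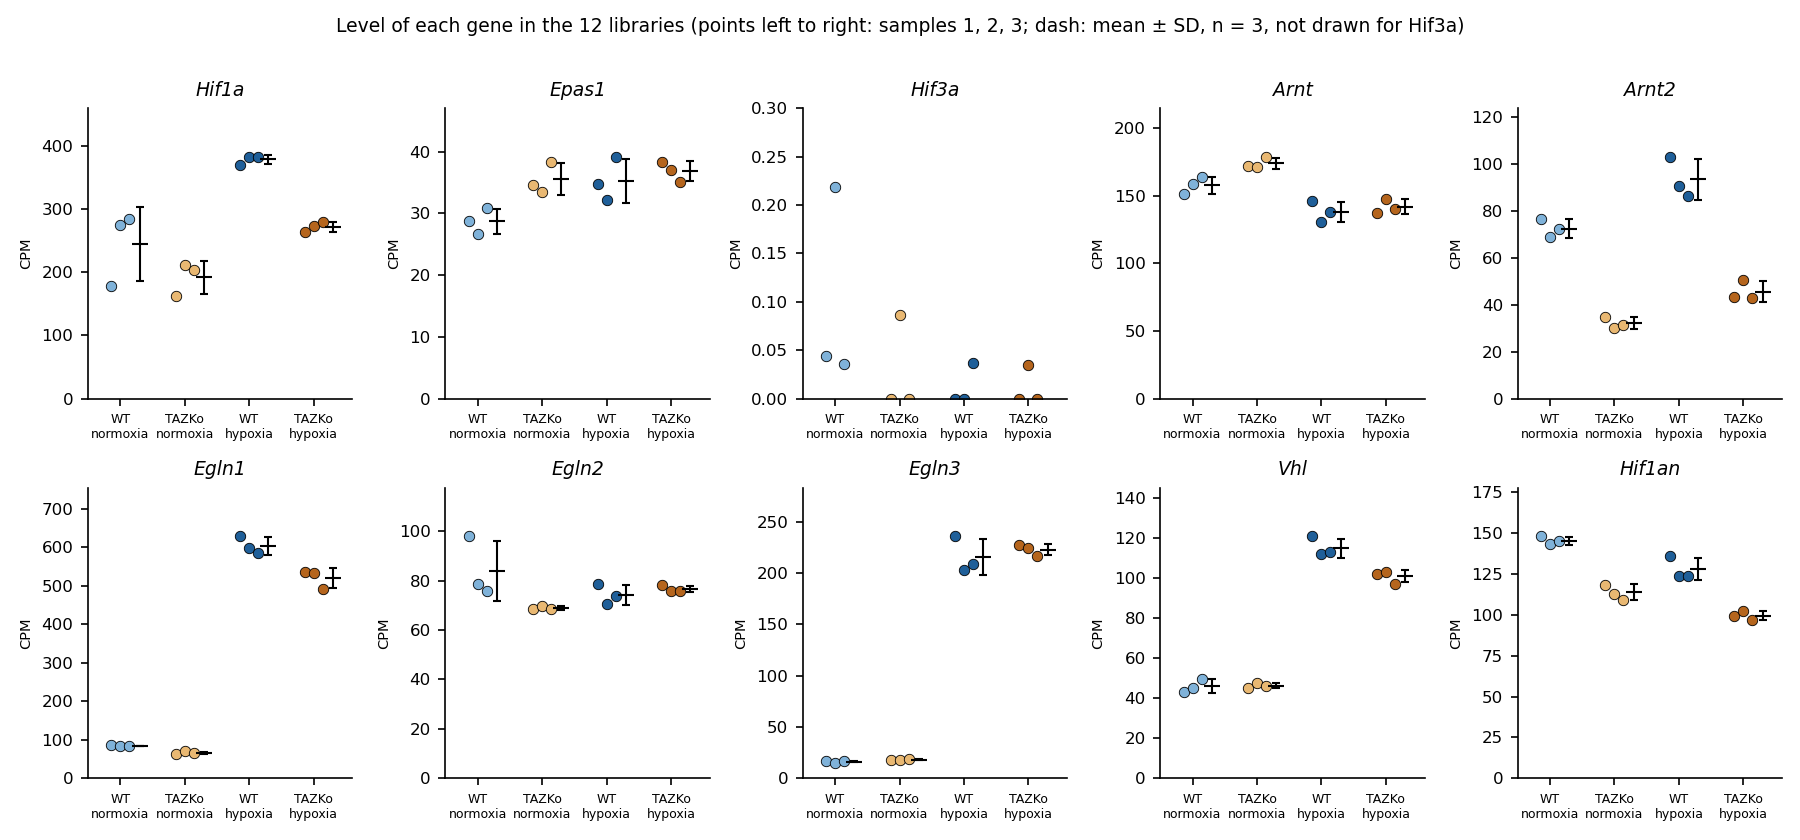
CPM of each gene in every library, with its own linear axis from 0 in each panel and the mean ± SD of the 3 samples beside the points (not drawn for Hif3a). The 6 hypoxia libraries of Egln1, Egln3 and Vhl lie above all 6 normoxia libraries, and the 6 TAZKo libraries of Arnt2 lie below all 6 WT libraries.

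Arnt2 showed the strongest genotype difference of the set. Arnt2 (ENSMUSG00000015709, chromosome 7, 84246278 to 84410176, minus strand) encodes a HIF beta subunit best known from neurons. The gene was at 76.4, 68.7 and 72.2 CPM under normoxia and 103, 90.3 and 86.4 CPM under hypoxia in the WT libraries, while the TAZKo libraries had, in the same order, 34.8, 30.2 and 31.5 CPM and 43.2, 50.7 and 42.8 CPM. Every TAZKo library lay below every WT library. Arnt2 was 2.25-fold lower in TAZKo in normoxia (log2 difference -1.17, SE 0.0901, edgeR adjusted p = 5.05e-07) and 2.05-fold lower in hypoxia (-1.03, SE 0.0887, edgeR adjusted p = 1.54e-06). It rose in hypoxia by 0.36 ± 0.0873 (log2 change ± SE) in WT libraries (0.00323 by edgeR, adjusted) and by 0.5 ± 0.0903 in TAZKo libraries (0.000533). The WT rise was 0.23 without WT hypoxia sample 1 (edgeR adjusted p = 0.0362). The antisense gene Gm30873, with 487 counts in all, shares 214 exon bases with Arnt2, 2.78% of its exon length.

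Arnt (ENSMUSG00000015522, chromosome 3, 95434388 to 95497240, plus strand) encodes HIF-1b, the common partner of HIF alpha and of the aryl hydrocarbon receptor. The gene lay at 151 to 164 CPM under normoxia and 131 to 146 CPM under hypoxia in the WT libraries, while the TAZKo libraries had, in the same order, 171 to 179 CPM and 137 to 148 CPM. In each genotype all hypoxia libraries lay below all normoxia libraries. The log2 response of Arnt was -0.2 ± 0.0588 (SE) for WT libraries, with an adjusted p of 0.0126 by edgeR, and -0.3 ± 0.0586 for TAZKo libraries, with 0.00103. With library size alone, a scaling under which the all-gene median response shifted by -0.106 (WT) and -0.094 (TAZKo), the falls were 0.3 and 0.39. The genotype differences of 0.14 in normoxia (interval 0.01 to 0.26, edgeR adjusted p = 0.0929) and 0.04 in hypoxia (interval -0.09 to 0.16, 0.685) did not pass. All tested genes on chromosome 3 had a median genotype difference of 0.13 in normoxia and 0.04 in hypoxia, and its part in the Arnt values was not tested.

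The make-up of the beta subunits differed with genotype and oxygen. Per exon length, Arnt2 made up 32.3% ± 1.89 of the summed Arnt and Arnt2 level in WT under normoxia and 41.3% ± 1.62 under hypoxia, while in TAZKo it made up 16.1% ± 1.08 and 25.1% ± 1.13 (mean ± SD, n = 3). The TAZKo share was 16.2 percentage points lower in each condition, and no library of the groups compared overlapped. With 3 samples against 3 an exact two-sided permutation test cannot go below 0.1, which it reached here (0.139 after Benjamini-Hochberg adjustment over the 32 share comparisons made). With the length of the longest transcript in place of the merged exons the shares were 24.1% and 31.9% in WT and 11.4% and 18.2% in TAZKo. The summed level of the 2 genes was lower in TAZKo without overlap, at 25.3 to 26.4 against 28.8 to 29.9 CPM per kb in normoxia and 22.8 to 25.1 against 28.0 to 31.6 in hypoxia, a difference that was not tested.

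**Figure D3:**
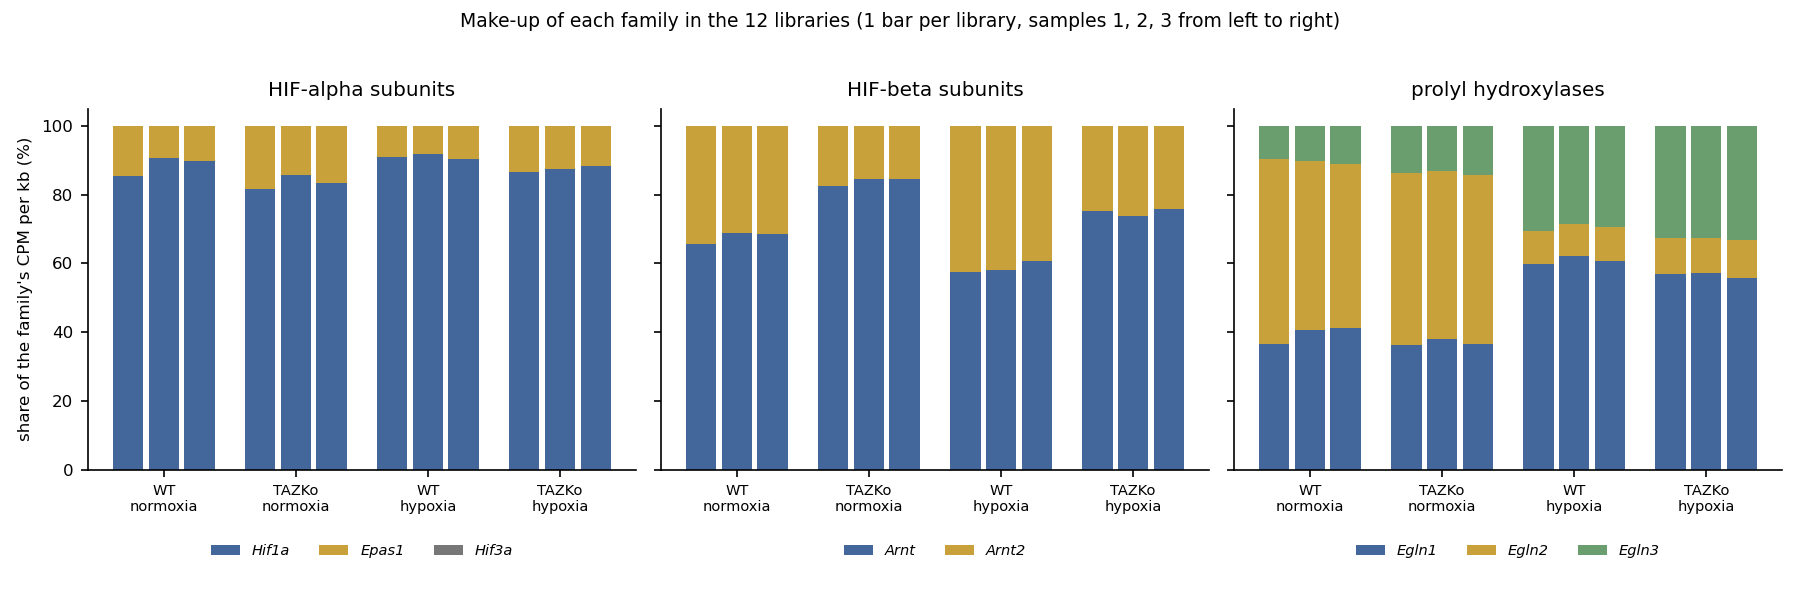
Share of each gene in the summed CPM per kb of its family, 1 stacked bar per library. Egln2 fills 47.9% to 53.8% of the prolyl hydroxylase bar in normoxia and 9.4% to 11.1% in hypoxia, and Arnt2 is the smaller part of the beta subunit bar in every library.

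Egln1 (ENSMUSG00000031987, chromosome 8, 124908587 to 124949324, minus strand) encodes PHD2, the main prolyl hydroxylase acting on HIF-1a in normoxia. The gene was at 85.2, 83.2 and 83.1 CPM under normoxia and 628, 598 and 584 CPM under hypoxia in the WT libraries, while the TAZKo libraries had, in the same order, 63.8, 69.9 and 65 CPM and 536, 532 and 490 CPM. The 4 groups did not overlap. Egln1 rose 7.2-fold in WT (log2 change 2.85, SE 0.0615, edgeR adjusted p = 1.01e-12) and 7.84-fold in TAZKo (2.97, SE 0.0619, 5.45e-13). It was lower in TAZKo (log2 difference -0.34 in normoxia, SE 0.0588; edgeR adjusted p = 0.000635) and again in hypoxia (-0.22, SE 0.0569, 0.00999). The median genotype difference of all tested genes on chromosome 8 was -0.16 in normoxia and -0.15 in hypoxia, and its part in the Egln1 difference was not tested. The hypoxia genotype call was lost with no filter on low counts (-0.2, edgeR adjusted p = 0.054).

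Egln3 (ENSMUSG00000035105, chromosome 12, 54178981 to 54203860, minus strand) encodes PHD3, the most hypoxia-responsive of the prolyl hydroxylases in many cell types. The gene was at 16.9, 15.4 and 16.4 CPM under normoxia and 236, 203 and 209 CPM under hypoxia in the WT libraries, while the TAZKo libraries had, in the same order, 17.8, 17.9 and 18.9 CPM and 227, 225 and 217 CPM. Oxygen separated the libraries fully, and the genotypes overlapped in hypoxia. Egln3 rose 13.3-fold in WT (log2 change 3.73, SE 0.0735, edgeR adjusted p = 4.46e-13) and 12.2-fold in TAZKo (3.61, SE 0.0726, 4.79e-13), the strongest rise among the members in each genotype. Its genotype difference was 0.16 in normoxia (interval 0.01 to 0.32, edgeR adjusted p = 0.108) and 0.04 in hypoxia (interval -0.09 to 0.18, 0.646). Whether the genotype differences of Egln1 and Egln3 differ from each other was not tested.

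Egln2 (ENSMUSG00000058709, chromosome 7, 27158658 to 27166802, minus strand) encodes PHD1 and was the only prolyl hydroxylase gene of the 3 with no called response to oxygen. The gene was at 97.9, 78.6 and 75.6 CPM under normoxia and 78.5, 70.6 and 73.9 CPM under hypoxia in the WT libraries, while the TAZKo libraries had, in the same order, 68.4, 69.8 and 68.4 CPM and 78, 75.6 and 75.8 CPM. WT normoxia sample 1 was the highest library and the TAZKo normoxia libraries were the lowest. Egln2 was lower in TAZKo in normoxia (log2 difference -0.29, SE 0.0843; edgeR adjusted p = 0.0195), by 0.16 without WT normoxia sample 1 (0.0327), and the difference missed the threshold when only the 6 normoxia samples were fitted (0.0772). In hypoxia the genotype difference was 0.04 (interval -0.14 to 0.22, edgeR adjusted p = 0.753). The oxygen response was -0.18 in WT (interval -0.36 to 0.01, edgeR adjusted p = 0.0972) and 0.15 in TAZKo (interval -0.03 to 0.33, 0.167).

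The Egln2 calls changed with the libraries fitted and with the settings. The WT response was called in 9 of the 12 fits that left out 1 library, at -0.23 to -0.31, under scaling by library size (-0.29, adjusted p = 0.0145 by edgeR) and with no filter (-0.25, 0.012). The libraries whose omission gave the call were WT normoxia samples 2 and 3, WT hypoxia sample 1, and all 3 samples of TAZKo normoxia and of TAZKo hypoxia. In these 9 fits the all-gene median of the WT response also shifted, by -0.035 to -0.055. TAZKo libraries do not enter the WT comparison, and without any 1 of them the Egln2 response was -0.232 or -0.233. The part of the all-gene shift in these calls was not tested. Without WT normoxia sample 1 the WT response was -0.05 (edgeR adjusted p = 0.438) and the TAZKo response of 0.15 passed (0.0193), as it did when only the 6 TAZKo samples were fitted (0.0107).

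Within the prolyl hydroxylase family the shares moved from Egln2 to Egln1 and Egln3, while the Egln2 level itself had no called change. It went from 30 to 26.6 CPM per kb in WT and from 24.6 to 27.3 in TAZKo. Per exon length Egln2 held 50.3% ± 3.06 of the family in WT normoxia and 49.3% ± 0.607 in TAZKo normoxia, and 9.63% ± 0.234 and 10.7% ± 0.334 in hypoxia (mean ± SD, n = 3). Egln1 went from 39.4% to 60.9% in WT and from 37% to 56.5% in TAZKo, and Egln3 from 10.3% to 29.4% and from 13.7% to 32.8%. The summed level of the 3 genes was 59.4 ± 4.86 CPM per kb in WT and 49.9 ± 1.12 in TAZKo under normoxia, against 276 ± 13.8 and 256 ± 9.42 under hypoxia. The Egln3 share was 3.41 points higher in TAZKo in normoxia and 3.33 points higher in hypoxia, with no overlap of the 3 against 3 libraries (exact permutation p = 0.1, the smallest possible, 0.139 adjusted). In hypoxia the Egln1 share was 4.4 points lower in TAZKo and the Egln2 share 1.06 points higher, also without overlap. In normoxia the groups overlapped for both genes. The Egln3 level itself had no called genotype difference.

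Vhl (ENSMUSG00000033933, chromosome 6, 113623959 to 113631633, plus strand) encodes the receptor that recognises hydroxylated HIF alpha. The gene was at 43, 45.3 and 49.8 CPM under normoxia and 121, 112 and 113 CPM under hypoxia in the WT libraries, while the TAZKo libraries had, in the same order, 45.3, 47.5 and 46 CPM and 102, 103 and 97.2 CPM. The normoxia groups overlapped, and the hypoxia groups did not. Vhl rose 2.5-fold in WT (log2 change 1.32, SE 0.0646, edgeR adjusted p = 1.98e-09) and 2.17-fold in TAZKo (1.12, SE 0.0643, 1.54e-08). In hypoxia it was lower in TAZKo (log2 difference -0.19, SE 0.0628; edgeR adjusted p = 0.0297), while in normoxia the difference was 0.01 (interval -0.13 to 0.15, 0.95), with a sign that changed with the scaling. The hypoxia difference missed the threshold without WT hypoxia sample 1 (-0.17, edgeR adjusted p = 0.0734), TAZKo hypoxia sample 1 (-0.21, 0.0529) or TAZKo hypoxia sample 3 (-0.18, 0.094), and with no filter (-0.17, 0.166).

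Hif1an (ENSMUSG00000036450, chromosome 19, 44562850 to 44576274, plus strand) encodes FIH, the asparaginyl hydroxylase. The gene lay at 143 to 148 CPM under normoxia and 124 to 136 CPM under hypoxia in the WT libraries, while the TAZKo libraries had, in the same order, 109 to 118 CPM and 96.8 to 102 CPM. The 4 groups did not overlap, and the TAZKo libraries were the lower ones in each condition. Hif1an was 1.28-fold lower in TAZKo in normoxia (log2 difference -0.36, SE 0.0572, edgeR adjusted p = 0.000371) and 1.29-fold lower in hypoxia (-0.36, SE 0.0574, 0.000294). All tested genes on chromosome 19 had a median genotype difference of -0.27 in normoxia and -0.28 in hypoxia, and its part in the Hif1an difference was not tested. Hif1an fell in hypoxia in each genotype, with log2 changes of -0.18 ± 0.0571 (SE) for WT libraries, with an adjusted p of 0.0166 by edgeR, and -0.19 ± 0.0574 for TAZKo libraries, with 0.0155. Without WT hypoxia sample 1 the WT fall was 0.28, and with library size alone it was 0.29 in each genotype.

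Per exon length the genes changed order with oxygen. Levels are given as mean CPM per kb of merged exon, and neighbours whose 3 libraries overlapped are named. The order within a group depends on the length used. In WT normoxia Hif1a led at 41.6 ± 9.93 (SD, n = 3), overlapping Egln2 at 30 ± 4.33 only through sample 1 (30.2 for Hif1a and 35.0 for Egln2, against 46.4 and 48.2 for Hif1a and 28.1 and 27.0 for Egln2 in samples 2 and 3), followed by Egln1 at 23.3, Hif1an at 22, Arnt at 19.8, Vhl at 15.4, Arnt2 at 9.42, Egln3 at 6.1 and Epas1 at 5.13. In WT hypoxia Egln1 led at 168 ± 6.36 and Egln3 followed at 81.3 ± 6.61, then Hif1a at 64.2, Vhl at 38.4, Egln2 at 26.6, Hif1an at 19.4, Arnt at 17.2, Arnt2 at 12.1 and Epas1 at 6.32, with no overlap between neighbours. Among all genes tested, the percentile of the level per length went from 82.0 to 98.8 for Egln1 and from 50.8 to 96.5 for Egln3 in WT. In TAZKo the order was the same for the first 5 genes in hypoxia, but Arnt2 was the lowest of the genes tested in both conditions, at 4.18 ± 0.313 in normoxia and 5.92 ± 0.583 in hypoxia, where it overlapped Epas1 at 6.59 ± 0.29. By the longest transcript Arnt2 lay at 6.87 to 8.14 in TAZKo hypoxia and Epas1 at 6.36 to 6.94. Vhl at 34.8 to 36.7 then overlapped Egln2 at 35.9 to 37.0. In TAZKo normoxia, per kb of merged exon, Egln1 at 18.4 overlapped Hif1an at 17.2, and Egln3 at 6.83 overlapped Epas1 at 6.35.

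**Figure D4:**
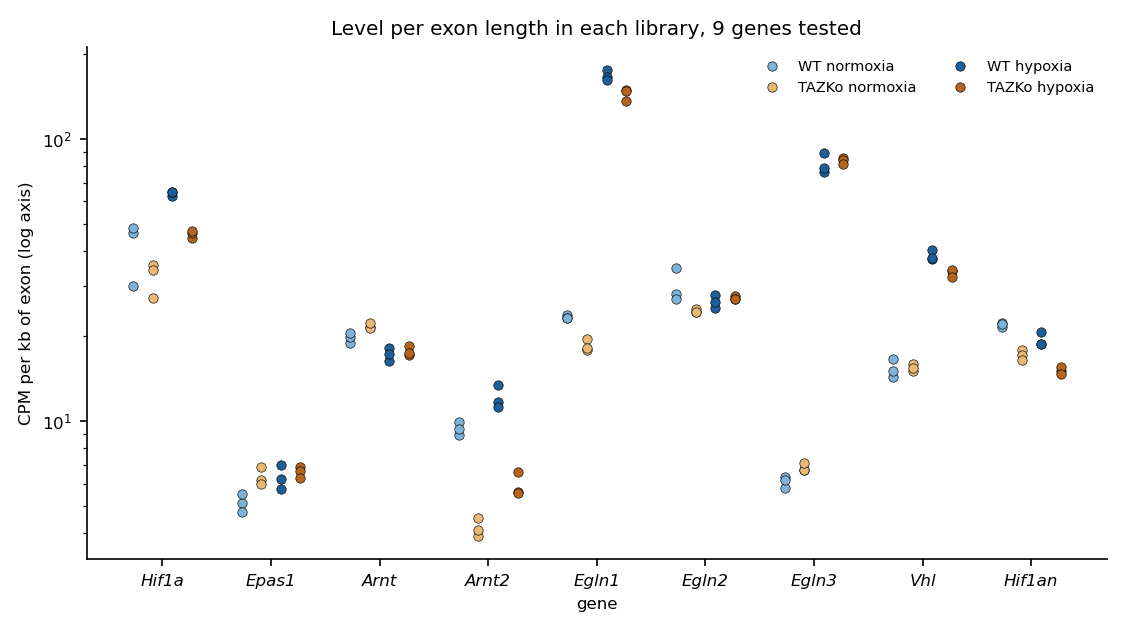
CPM per kb of merged exon in every library on a log axis, for the 9 genes tested and the 4 groups. Egln1 and Egln3 stand above Hif1a in all hypoxia libraries, and below it in all normoxia libraries.

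The alpha subunit pool was mostly Hif1a. Hif1a made up 88.6% ± 2.77 of the summed alpha level per length in WT and 83.5% ± 2.03 in TAZKo under normoxia, against 91% ± 0.788 and 87.5% ± 0.781 under hypoxia (mean ± SD, n = 3). The hypoxia groups did not overlap, with a share 3.55 points lower in TAZKo (exact permutation p = 0.1, the smallest possible), and the normoxia groups overlapped (exact p = 0.2) through WT sample 1 at 85.5%, with the other WT samples at 90.6% and 89.7% and TAZKo at 81.6% to 85.6%. The summed alpha level was 46.7 ± 9.98 CPM per kb in WT and 38.9 ± 4.54 in TAZKo under normoxia, against 70.5 ± 1.52 and 52.7 ± 1.02 under hypoxia. In WT normoxia sample 1 it was 35.3, and in the other 2 samples 51.2 and 53.7 CPM per kb.

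For no member was the response to hypoxia called different in TAZKo and WT libraries (edgeR's interaction contrast, adjusted p under 0.05), where 2.43% of all genes tested were called. At an unadjusted p under 0.05 there were 2 members, Egln2 and Vhl, beside 15.8% of all genes, and DESeq2 called 0. The TAZKo response minus the WT response was 0.33 for Egln2 (95% interval 0.07 to 0.58, edgeR adjusted p = 0.189) and 0.2 without WT normoxia sample 1 (0.164). It was -0.2 for Vhl (interval -0.4 to -0.01, edgeR adjusted p = 0.299) and -0.25 for Epas1 (-0.51 to 0.01, 0.343). For Hif1a it was -0.12 with an interval of -0.55 to 0.31, which spans both a weaker and a stronger response, and 0.06 without WT normoxia sample 1. The intervals were -0.05 to 0.3 for Egln1, -0.33 to 0.09 for Egln3, -0.13 to 0.41 for Arnt2, -0.28 to 0.08 for Arnt and -0.18 to 0.17 for Hif1an.

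The genes around the members in the pathway were read from 6 lists, and the calls below are by edgeR at an adjusted p under 0.05, beside shares of all genes called of 51.0% (WT response), 43.8% (TAZKo response), 30.4% (genotype, normoxia) and 32.8% (genotype, hypoxia). Of 9 other components and regulators of the VHL ligase, 1 differed by genotype in normoxia (11.1%) and 2 in hypoxia (22.2%), both shares below those of all genes. The normoxia count was 2 without any 1 of the 3 WT normoxia samples. The hypoxia count was 0 without WT sample 2 or TAZKo samples 1 or 3, and 1 without WT samples 1 or 3 or TAZKo sample 2. Vcp, the segregase that extracts ubiquitylated proteins, was lower in TAZKo, at 120 ± 5.2 against 153 ± 9.9 CPM in normoxia (log2 difference -0.35, adjusted p = 0.000847) and 107 ± 4.77 against 121 ± 3.49 CPM in hypoxia (-0.18, 0.044, lost in 9 of 20 alternatives). Rbx1, the RING subunit, was higher in TAZKo in hypoxia (0.18, adjusted p = 0.0299, lost in 6 of 20 alternatives). Under hypoxia 3 of 9 fell in WT, namely Vcp (-0.34, adjusted p = 0.000541), Elob (-0.21, 0.032) and Nedd8 (-0.21, 0.0376). In TAZKo Vcp (-0.16, 0.0477) and Cops5 (-0.17, 0.0381) fell and Rbx1 rose (0.18, 0.0261, lost in 11 of 20 alternatives). The list's median log2 changes under hypoxia were -0.04 in WT and -0.02 in TAZKo, beside 1.32 and 1.12 for Vhl itself. The TAZKo count of 3 fell to 0 without TAZKo hypoxia sample 3 and to 1 without TAZKo hypoxia samples 1 or 2 or TAZKo normoxia sample 2, and both responses to 1 with the lane as a covariate. Elob, Nedd8 and the smaller Vcp change were named because the counts were small and were chosen after their values were seen.

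Of 17 tested genes that otherwise control HIF alpha turnover, 10 changed in WT under hypoxia, 6 higher and 4 lower, and 7 in TAZKo, 5 higher and 2 lower. These shares of 58.8% and 41.2% were near those of all genes, and the TAZKo count was 4 without TAZKo normoxia sample 3. Siah2, a ubiquitin ligase that targets prolyl hydroxylases, rose in WT from 22.4 ± 1.69 to 65.2 ± 2.14 CPM (log2 change 1.54, SE 0.074, adjusted p = 1.63e-09) and was higher in TAZKo in normoxia at 32.9 ± 1.97 CPM (0.55, 7.87e-05). Mdm2, the p53 ubiquitin ligase, rose in WT from 83.6 ± 8.4 to 234 ± 44.7 CPM (1.48, adjusted p = 1.71e-07) and in TAZKo from 110 ± 1.41 to 214 ± 6.19 CPM (0.96, 1.42e-05). Rwdd3, a SUMOylation enhancer, fell by 1.11 in each genotype (adjusted p = 8.39e-05 in WT and 4.54e-05 in TAZKo). By genotype 6 differed in normoxia, 5 higher and 1 lower, and 2 in hypoxia, 1 in each direction. The normoxia count was 3 without TAZKo normoxia samples 2 or 3. The hypoxia count was 8 without WT normoxia sample 1, and 5 without WT normoxia sample 3 or WT hypoxia sample 1. The chaperone gene Hsp90ab1 was lower in TAZKo in normoxia (-0.28, adjusted p = 0.00377), Hsp90aa1 was lower in hypoxia (-0.36, 0.00371) and Os9 was higher in hypoxia (0.45, 3.95e-05), where all genes of its chromosome 10 had a median of 0.29. P4htm was too low to test.

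Of 12 tested HIF coactivators and competitors, 7 changed in WT under hypoxia, 5 higher and 2 lower, and 5 in TAZKo, 2 higher and 3 lower. These shares of 58.3% and 41.7% were near those of all genes, and the WT count was 3 without WT hypoxia sample 2. Cited2, a competitor for the p300 and CBP coactivators, rose from 120 ± 16.8 to 254 ± 16.9 CPM in WT (log2 change 1.08, adjusted p = 2.23e-06) and from 156 ± 20.8 to 341 ± 12.3 CPM in TAZKo (1.13, 2.22e-06). The largest falls were Ruvbl1 in WT (-0.5, adjusted p = 0.000128) and Ncoa2 in TAZKo (-0.33, 0.00297). By genotype 5 differed in normoxia, 2 higher and 3 lower, and 5 in hypoxia, 3 higher and 2 lower. The normoxia count was 8 with the sample number as a block, 2 with only the 6 samples compared or without TAZKo normoxia sample 2, and 3 without TAZKo normoxia sample 3. The hypoxia count was 3 without WT hypoxia sample 2 or TAZKo hypoxia sample 3. Ncoa1 was the highest in TAZKo in normoxia (0.49, adjusted p = 0.000446) and Cited2 in hypoxia (0.43, 0.00736, on chromosome 10, where all genes had a median of 0.29). The redox factor gene Apex1 was lower in TAZKo in normoxia (-0.42, adjusted p = 0.00872) and in hypoxia (-0.33, 0.0293, lost in 3 of 20 alternatives). Cited4 was too low to test.

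Of 8 tested relatives of the HIF subunits, the other bHLH-PAS factors, 6 changed in WT under hypoxia, 5 higher and 1 lower, and 5 in TAZKo, 4 higher and 1 lower, shares of 75% and 62.5%. At a mean of at least 5 CPM, where fewer of these genes were tested, 2 were called in each. Arntl2, a paralogue of the clock gene Arntl and like Arnt2 a beta-class gene, was 0.498 ± 0.0617 CPM in TAZKo and 2.16 ± 0.245 CPM in WT in normoxia (log2 difference -2.1, SE 0.203, adjusted p = 4.21e-06), and 0.361 ± 0.0746 against 2.28 ± 0.275 CPM in hypoxia (-2.66, SE 0.216, 9.23e-07). Arntl itself was higher in TAZKo in normoxia (0.24, adjusted p = 0.023, lost in 10 of 20 alternatives). Sim2, a factor of midline development, stood at 0.107 ± 0.0547 CPM in WT normoxia, about the level of 3 counts, and at 1.55 ± 0.0597 CPM in WT hypoxia (adjusted p = 2.58e-06). In TAZKo it stood at 0.121 ± 0.121 and 1.06 ± 0.0486 CPM (2.51e-05). Npas3 fell in WT (-0.9, adjusted p = 0.0161). By genotype 3 of 8 differed in normoxia, 1 higher (Arntl) and 2 lower (Arntl2 and Npas1, the latter at -0.63, adjusted p = 0.0326), and 1 in hypoxia, Arntl2. Npas1 was chosen after its value was seen. The normoxia count was 1 without WT normoxia sample 3 or TAZKo normoxia samples 1 or 3, and the hypoxia count 2 without TAZKo normoxia sample 2. Ahrr, Npas4 and Sim1 were too low to test.

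Of 11 genes known to act on Hif1a transcription and translation, 7 changed in WT under hypoxia, 5 higher and 2 lower, and 5 in TAZKo, 3 higher and 2 lower, shares of 63.6% and 45.5%, the latter near that of all genes. Eif4ebp1, a translation repressor held in check by mTOR, rose from 102 ± 17.7 to 244 ± 15.6 CPM in WT (log2 change 1.27, adjusted p = 2.03e-07) and from 136 ± 1.33 to 236 ± 9.6 CPM in TAZKo (0.8, 2.06e-05). Rptor, the mTORC1 scaffold, fell by 0.53 in WT (adjusted p = 3.73e-05) and by 0.34 in TAZKo (0.00183). By genotype 3 differed in normoxia, 2 higher and 1 lower (5 with the sample number as a block, 6 without WT hypoxia sample 1), with Eif4ebp1 higher (0.42, adjusted p = 0.0051) and Stat3 lower (-0.27, 0.0191). In hypoxia Rela alone differed (-0.25, adjusted p = 0.0242, lost in 3 of 20 alternatives), and it lies on chromosome 19, where all genes had a median of -0.28. That count was 0 without WT hypoxia samples 1 or 3 or TAZKo hypoxia sample 3, and 3 without WT normoxia sample 1.

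Of 22 tested HIF targets, 22 rose in WT under hypoxia and 21 rose in TAZKo, with median log2 changes of 2.45 and 2.34 (2.31 in TAZKo with Adm, which was at or under 3 counts in every normoxia library, set to its lower bound). By genotype 16 of 22 differed in normoxia (72.7%), 4 higher and 12 lower, and 8 in hypoxia (36.4%, near the share of all genes), 1 higher and 7 lower. Vegfa, the vascular growth factor, was higher in TAZKo in normoxia at 111 ± 4.76 against 54.4 ± 8.16 CPM (log2 difference 1.03, adjusted p = 1.93e-06). In hypoxia P4ha1, a collagen prolyl hydroxylase on chromosome 10, was higher in TAZKo (0.32, adjusted p = 0.000591) and Adm, a vasodilator peptide, was lower at 0.359 ± 0.106 against 1.17 ± 0.44 CPM (-1.66, 0.0037). All tested genes on chromosome 10 had a median genotype difference of 0.29 in hypoxia, and its part in the P4ha1 difference was not tested. The median genotype difference of the list was -0.24 in normoxia and -0.12 in hypoxia, beside 0.01 and -0.008 for all genes. Car9, a carbonic anhydrase, was the target with no called rise in TAZKo (0.28), and was chosen after its value was seen. Epo was too low to test. The hypoxia response differed between the genotypes for 7 of the 22 targets, 3 with a larger and 4 with a smaller change in TAZKo (31.8%, beside 2.43% of all genes). This count ranged from 4, without WT hypoxia sample 3, to 10, with no filter on low counts. It differed for 1 of the 17 turnover genes (Siah2, smaller in TAZKo), and for none of the tested genes of the other 4 lists by edgeR. The turnover count was 2 without WT hypoxia sample 1, and the transcription and translation list had 1 without that library or without WT normoxia sample 1.

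**Figure D5:**
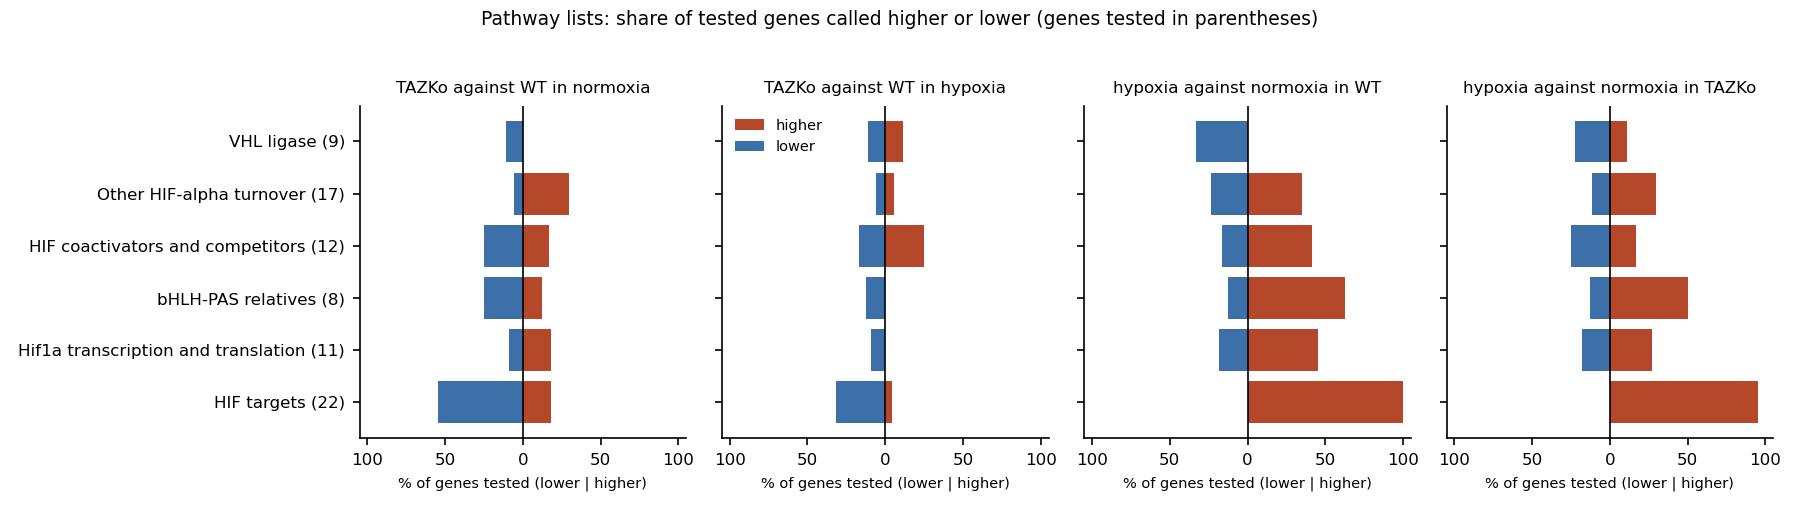
Share of the tested genes of each pathway list called higher (right of 0) or lower (left of 0) in each comparison, in percent, with the number tested in parentheses. HIF targets fill the right side under hypoxia, with 22 of 22 in WT and 21 of 22 in TAZKo, and lie mainly to the left between genotypes in normoxia, with 12 of 22 lower.

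The genes whose profiles over the 12 libraries lay closest to 3 of the members were named by Pearson's r of log2 CPM, as a description over libraries that share groups, depth and lane. For Hif1a they were Cacul1 (0.994), Zfp91 (0.988) and Hs6st2 (0.985). For Epas1 the closest, Trim66 (0.923), Stom (0.9) and Prdm2 (0.896), were less alike. For Egln3 they were Ndrg1 and Gys1 (both 0.999) and Pfkp (0.998). Among the members Egln1, Egln3 and Vhl were alike with r of 0.99 for each pair over the 12 libraries, and Arnt ran against them at -0.9, -0.85 and -0.85.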

How the data were processed

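RNA was measured by TruSeq RNA v2 libraries from 12 samples, 3 in each of 4 groups taken from the labels. The values are raw read counts per gene that the authors deposited, 1 table per sample, with mm10 named in the submitters' processing notes. The aligner, the counter and its strand setting are not given in the sources used here. Ensembl IDs were matched to GENCODE M21 (GRCm38) symbols for 48349 of 48709 genes, leaving 360 unmatched, and 99.73% of neighbouring IDs followed the GRCm38 order.

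Genes were kept with edgeR's filterByExpr (14408 genes), scaled by TMM and fitted over all 12 samples with the quasi-likelihood test (edgeR 4.0.16, limma 3.58.1, R 4.3.3). P-values were adjusted by Benjamini-Hochberg over all genes tested, with a threshold of 0.05, and the standard error is the log2 change divided by the square root of F. The biological coefficient of variation was 8.6%. CPM values are TMM-scaled, apart from the limit of 3 counts, and levels per length divide the scaled values by the merged exon length. Shares were compared by exact two-sided permutation tests (Python 3.11.15, scipy 1.17.1, numpy 2.4.6, pandas 2.3.3). Intervals are 95%, and the limit of 3 counts covers counting error only. The fit was tested on simulated data.

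The members and the gene lists were chosen with earlier results of these data known. From each list and comparison, the largest increase and the largest decrease were named among genes that passed the test and whose groups did not overlap, and the 3 genes with the highest Pearson correlation were named for Hif1a, Epas1 and Egln3 (log2 CPM, prior count 2). One HIF target that counts in its list is not reported here by name. Alternatives were DESeq2's size factors and test (DESeq2 1.42.0), library size alone, no filter, a mean of at least 5 CPM, the sample number as a block, the lane in the table names as a covariate, only the 6 samples compared, and leaving out each of the 12 libraries. The same fits of the lists, and of the shares with a library left out, were chosen after seeing the data.

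The sample numbers come from the titles. Deviations from the group means of same-numbered samples correlated by 0.15 to 0.35 between the genotypes in normoxia, over 0.1 in 3 of 3 pairs. Between conditions in WT they correlated by 0.15 to 0.37, also over 0.1 in 3 of 3 pairs. Some differently numbered samples reached similar values. WT normoxia sample 3 correlated by 0.18 with WT hypoxia sample 2, and WT normoxia sample 2 by 0.12 with TAZKo normoxia sample 3. The main fit has no block, and the sample number entered only as an alternative. Same-numbered samples did not pair in hypoxia (-0.02 to 0.12) or in TAZKo (-0.02 to 0.09).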

Additional observations from a re-analysis of the deposited data

Results flagged for a closer look

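Among the pathway genes around the HIF subunits and oxygen sensors, the 7 described here responded to hypoxia differently in the 2 genotypes, by edgeR's interaction contrast at an adjusted p under 0.05 over all genes. No explanation was tested for any of them. Vegfa rose by 2.71 on the log2 scale in WT and by 1.44 in TAZKo, a difference of -1.27 (SE 0.127, adjusted p = 0.000241), which passed in 19 of 19 alternatives. Siah2 rose by 1.54 and 0.83, a difference of -0.71 (SE 0.102, adjusted p = 0.00279, 19 of 19). Ero1l, an oxidase of protein folding, rose by 3.6 and 2.93, a difference of -0.67 (SE 0.128, adjusted p = 0.0153, 16 of 19). Car9 changed by 1.35 and 0.28, a difference of -1.08 (SE 0.214, adjusted p = 0.0179, 15 of 19).

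The other 3 genes rose more in TAZKo. Aldoa, a glycolytic aldolase, rose by 1.28 in WT and 1.77 in TAZKo, a difference of 0.49 (SE 0.0978, edgeR adjusted p = 0.0182, 19 of 19). P4ha1 rose by 1.23 and 1.61, a difference of 0.38 (SE 0.0774, edgeR adjusted p = 0.02, 19 of 19). Bnip3, a mitophagy receptor gene, rose by 3.87 and 4.32, a difference of 0.45 (SE 0.107, edgeR adjusted p = 0.045), which passed in only 9 of 19 alternatives, with adjusted p-values from 0.0127 to 0.105.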

How the results depend on the processing

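Over 891 alternative values of the 9 members tested, 819 kept their direction and side of the threshold, 18 lost and 18 gained a call, and 36 changed sign, all of these for values that had not passed. The cause was not tested. The members called between genotypes in hypoxia went from 5 to 3 with no filter, and ranged from 3 to 5 with a library left out (3 without TAZKo hypoxia sample 1). The normoxia difference of Vhl was -0.008 with DESeq2's size factors, -0.009 in DESeq2, -0.023 with no filter and -0.048 to 0.033 with a library left out. The Hif1an difference between responses was 0.007 with DESeq2's size factors and in DESeq2, 0.003 with library size alone, 0.043 with no filter, 0.009 at a mean of at least 5 CPM and -0.021 to 0.058 with a library left out. The Epas1 response in TAZKo was -0.044 with library size alone and -0.017 to 0.083 with a library left out. Left-out fits of the genotype difference in hypoxia ranged from -0.013 to 0.13 for Epas1, from -0.009 to 0.063 for Arnt, from -0.001 to 0.069 for Egln2 and from -0.005 to 0.099 for Egln3. Those of the Hif1a difference between responses ranged from -0.21 to 0.064.

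With the sample number as a block, Hif1a in normoxia passed (-0.345, edgeR adjusted p = 0.0172), and no other member call changed. The block moved the turnover list in hypoxia from 2 to 6 calls and the transcription and translation list from 1 to 3, where the numbers do not pair the samples. The count of all genes called in the difference between responses was 350, and 574 in DESeq2, 727 with no filter, 639 with the block and 174 to 711 with a library left out.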
